A study of Mus musculus with 12 samples.

Results

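Hearts of 2-month-old mice without the glucocorticoid receptor gene in cardiomyocytes were compared with hearts of Cre-negative littermates across all genes on the array. The comparison takes 6 of the 12 arrays of the series, chosen by label: 3 male cardioGRKO mice and 3 male GRflox mice, all of 2 months and on a C57BL/6 background, 1 array per whole heart. The cardioGRKO mice carry the floxed receptor gene and Cre under the αMHC promoter, which is active in cardiomyocytes. The GRflox controls carry the same floxed gene and no Cre, so both groups share the floxed allele, and Cre itself and the loss of the receptor cannot be told apart. The other 6 arrays hold hearts of 1-month-old mice of the same 2 genotypes, 3 each. They enter here only in the choice of probes, to estimate the spread and as a second set of hearts. Of 41174 probes on the array, enough lay well above background to test 21910 genes.

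The glucocorticoid receptor, encoded by Nr3c1, is a transcription factor that sits in the cytoplasm with chaperones until it binds cortisol or corticosterone. It then enters the nucleus, where it binds paired half-sites in DNA and raises genes such as Fkbp5, Tsc22d3 and Per1, and lowers many inflammatory genes. In the heart it is known for its part in late fetal maturation, calcium handling and the response to stress, and the mineralocorticoid receptor of the same cells binds the same hormones.

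At 2 months 29 genes passed the test, 17 higher and 12 lower in the knockout hearts (limma, Benjamini-Hochberg adjusted p under 0.05 over all genes, n = 3 hearts per group). That is 0.0776% of the genes tested for the higher and 0.0548% for the lower. Prr27, Klk1b16 and C030046M01Rik (lower) and AU023762 (higher) entered the test only through the group where they are high. The genes that fell include Nr3c1 itself, Ptgds, which makes prostaglandin D2, the Z-disc gene Myot, Phyhd1, Csdc2 and Cngb3. The genes that rose include the slow myosin Myh7, the skeletal muscle genes Casq1 and Mybpc2, the potassium channel Kcnj14 and Bcl2. An unadjusted p under 0.05 was found for 1709 genes, 763 higher and 946 lower, where 1096 would be found if no gene differed. The median log2 difference over all genes was 0.02, and the lower and upper quartiles were -0.15 and 0.22. With the slide as a fixed block, and in a fit of the 6 arrays alone, limma called 0 genes (994 and 1201 at an unadjusted p under 0.05). All 29 kept their direction and an unadjusted p under 0.05 in both fits. The 29 were chosen for small p on these same arrays, so this is no independent check.

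**Figure D1:**
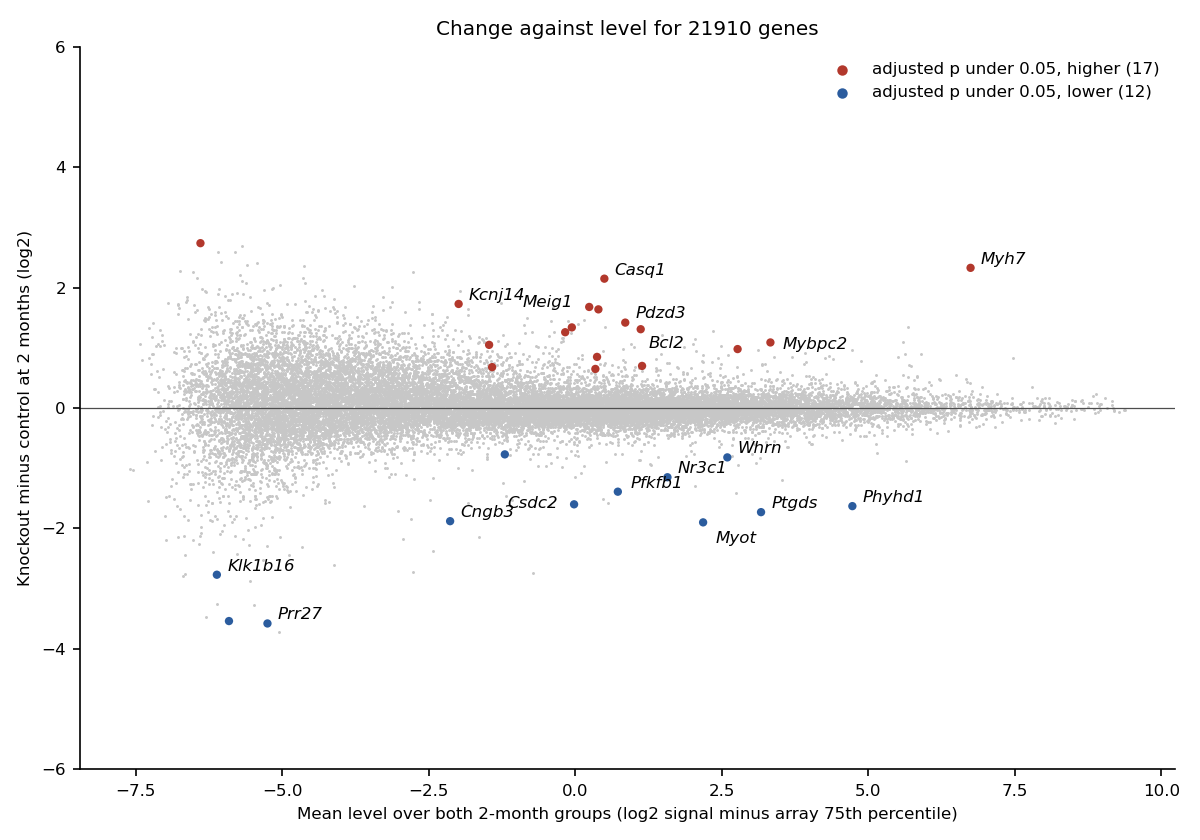
Difference between knockout and control hearts at 2 months (log2, vertical axis) against the mean level over both groups (log2 signal minus the array's 75th percentile, horizontal axis), 1 point per gene for 21910 genes. Coloured points are the 17 higher and 12 lower genes that passed limma's test; most of the other genes scatter around 0, more widely at low levels.

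Start-site sequences were read for the genes that passed, since members that move together after loss of a DNA-binding receptor can be set against its known site. Of the 29 genes, 16 were matched in the RefSeq promoter table (GRCm38.p6), with 25 start sites. Each promoter runs from 250 bases before to 50 bases after a start site, and a gene was counted if any of its promoters held a motif on either strand. The receptor half-site AGAACA was in 1 of the 16 genes (6.2%) and in 19.0% of all 32851 promoters of 300 bases. The inverted repeat of AGAACA and TGTTCT 3 bases apart, with up to 2 mismatches in its 12 fixed letters, was in 1 of the 16 genes and in 1.8% of all promoters. That gene was Meig1 for both. The TATA box TATAAA was in 1 gene (Pfkfb1) against 13.6% of promoters, and the E-box CACGTG in 1 gene (Meig1) against 7.2%. No match says only that these letters are not in this window.

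The 4 stretches of 250 bases before a start site shown here run 5′ to 3′ on the gene's strand and belong to a gene that fell, 2 of the named genes that rose most and the gene with the inverted repeat. Capitals mark the 15 bases nearest to the inverted repeat; over all promoters 1.6% had a stretch with at most 2 mismatches, 12.3% with at most 3, 51.4% with at most 4 and 91.8% with at most 5.
Phyhd1: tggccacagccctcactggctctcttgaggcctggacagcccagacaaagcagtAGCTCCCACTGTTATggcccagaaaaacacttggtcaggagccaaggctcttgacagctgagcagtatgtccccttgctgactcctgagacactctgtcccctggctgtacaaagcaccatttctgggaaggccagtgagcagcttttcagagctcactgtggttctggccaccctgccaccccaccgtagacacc
Myh7: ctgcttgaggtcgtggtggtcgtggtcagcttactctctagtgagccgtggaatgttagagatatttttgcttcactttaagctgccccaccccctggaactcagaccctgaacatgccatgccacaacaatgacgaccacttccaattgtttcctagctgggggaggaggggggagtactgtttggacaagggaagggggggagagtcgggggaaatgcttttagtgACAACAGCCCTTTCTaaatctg
Casq1: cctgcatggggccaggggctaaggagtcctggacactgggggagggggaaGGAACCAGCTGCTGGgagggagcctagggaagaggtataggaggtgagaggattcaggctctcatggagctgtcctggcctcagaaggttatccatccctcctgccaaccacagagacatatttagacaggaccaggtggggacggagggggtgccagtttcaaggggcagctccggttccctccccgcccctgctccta
Meig1: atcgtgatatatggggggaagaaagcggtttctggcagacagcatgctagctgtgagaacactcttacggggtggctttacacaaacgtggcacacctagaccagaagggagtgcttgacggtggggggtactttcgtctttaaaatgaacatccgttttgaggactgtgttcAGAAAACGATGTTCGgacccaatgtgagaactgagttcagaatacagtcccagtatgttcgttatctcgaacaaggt
The capitals hold 4 mismatches for Phyhd1, 3 for Myh7, 5 for Casq1 and 2 for Meig1. The windows are chr2:30265953-30266202 (plus strand) for Phyhd1, chr14:54994627-54994876 (minus strand) for Myh7, chr1:172219896-172220145 (minus strand) for Casq1 and chr2:3418598-3418847 (minus strand) for Meig1 on GRCm38.p6, credited to RefSeq. Meig1 has 3 start sites in the table and the window shown belongs to the last of them.

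Levels below are log2 signals from which the array's 75th percentile was subtracted, so 0 is the signal of that percentile, and 3 values in a row are replicates 1, 2 and 3 of a group. Levels of different probes are not on one scale and are not set against each other. The gene lists were chosen with earlier results of these data known. Over all genes tested 0.0776% rose and 0.0548% fell by the test, and counts of list members that passed are descriptions only. In whole hearts, fewer cells of a type and less RNA per cell cannot be told apart. The labels name separate animals, so p-values measure the spread between hearts. Arrays of the 2 groups lay on 3 slides: slide 2 held controls 1 and 2, slide 3 held control 3 with knockouts 1 and 2, and slide 4, scanned on a second day, held knockout 3. Between 68.4% and 81.9% of probes were well above background, the highest on control 2 and knockout 3 (79.1%), and arrays of different groups correlated as closely (0.946 to 0.986) as arrays of the same group (0.949 to 0.986). Ventricular cardiomyocyte markers marked the tissue as heart in both groups, with Myl2 at a mean of 9.20 in controls and 9.17 in knockouts and Tnnt2 at 8.92 and 8.98.

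Nr3c1 was lower in every knockout heart. Its level was 2.26, 2.11 and 2.07 in the control hearts and 1.05, 1.02 and 0.93 in the knockout hearts. The groups were about 1 log2 unit apart and each was tight. It fell by 1.15 (SE 0.13), which is 2.22-fold (limma adjusted p = 0.0117, n = 3 per group). The 4 probes of the gene read 45.1%, 46.7%, 54.9% and 40.3% of the control signal, and on 3 of them the groups did not overlap. On the fourth, the mean was -2.23 in controls and -3.10 in knockouts with an SD of 0.73 in the knockouts. Which exons are floxed is not given in the labels, and whether a probe lies in the deleted part was not tested. Other cells of the heart keep the gene. The call held in 6 of 12 fits that left out 1 array, and within slide 3, where control 3 stood beside knockouts 1 and 2, the log2 difference was -1.04 (limma adjusted p = 0.56).

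The other genes of hormone reception and supply did not pass. Nr3c2, the mineralocorticoid receptor, had levels of -3.71, -2.44 and -2.78 in controls and -3.85, -3.64 and -1.43 in knockouts, and the groups overlapped over a wide range (95% interval of the log2 difference -1.45 to 1.45). Hsd11b1, the enzyme that turns inactive 11-keto steroids into active hormone, was at 2.37, 2.17 and 2.43 in controls and 2.13, 2.26 and 2.58 in knockouts. Its interval ran from -0.68 to 0.68. Of the 10 measured genes of this list, 1 fell (Nr3c1) and 0 rose, and the list's median log2 difference was -0.06 against 0.02 over all genes. The receptor's chaperones and coregulators, 24 genes, held 0 that passed, with a median of -0.08.

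**Figure D2:**
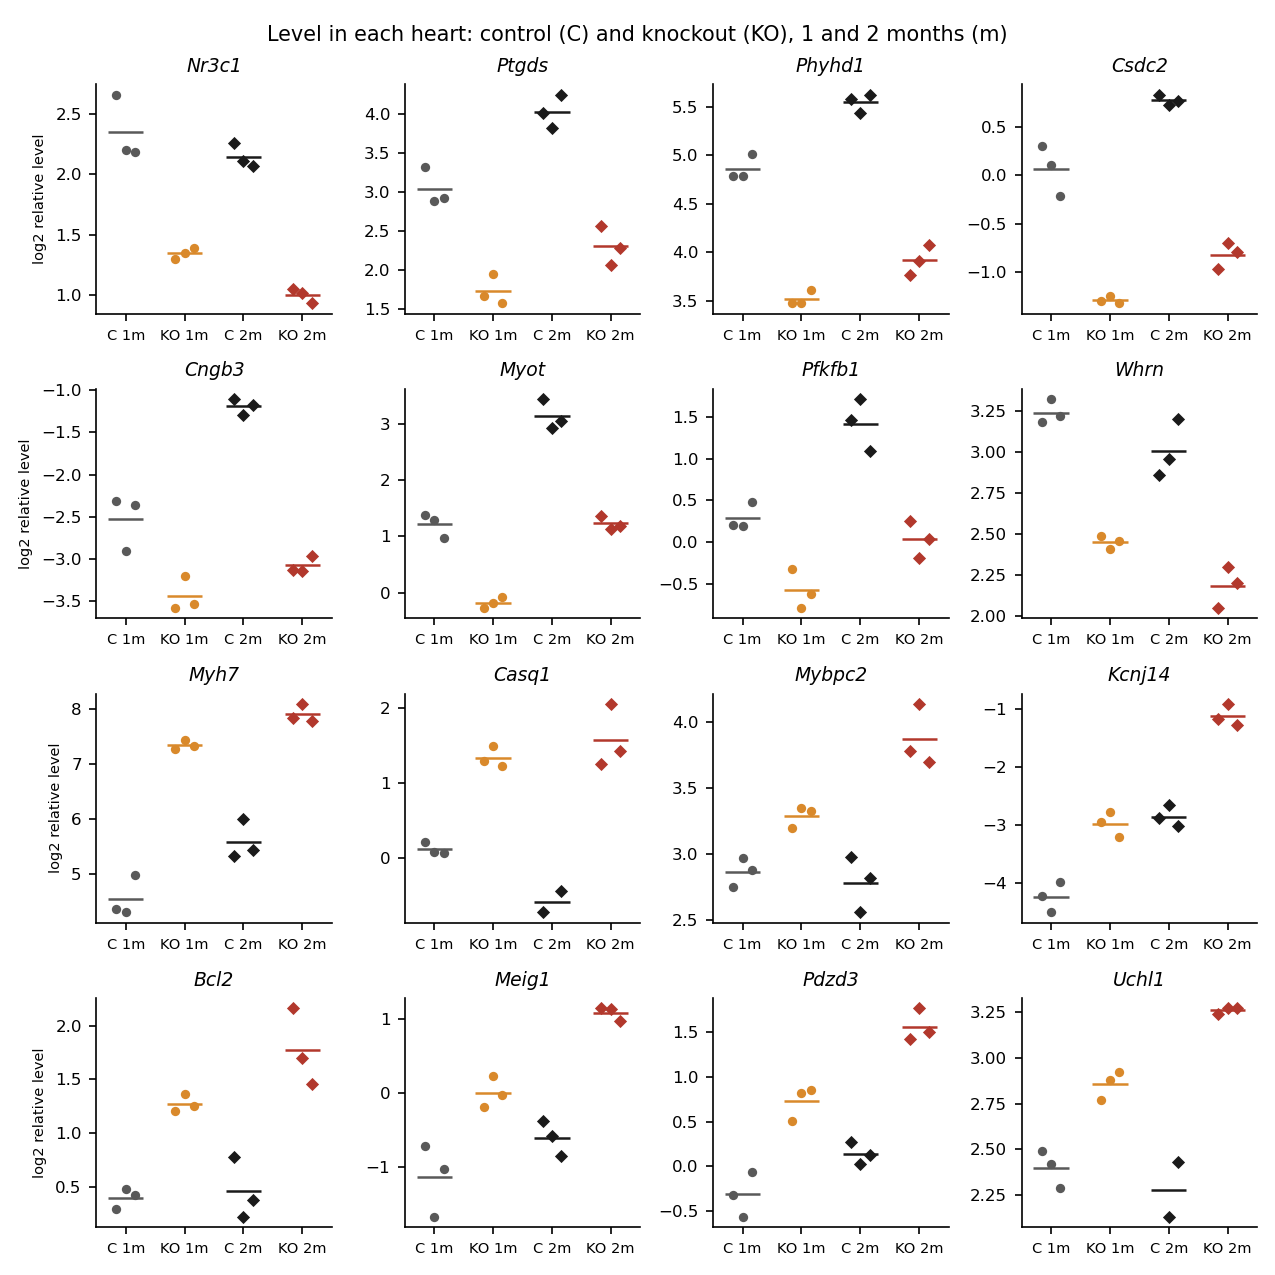
Level of 16 genes that passed at 2 months in each heart (log2 signal minus the array's 75th percentile), with control (C) and knockout (KO) hearts of 1 month (circles) and 2 months (diamonds); lines are group means, and Casq1 and Uchl1 each lack 1 control value at 2 months. In the 2-month pairs every knockout heart lies on the same side of every measured control heart, as for Nr3c1 at 1.05, 1.02 and 0.93 against 2.26, 2.11 and 2.07.

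Among 49 measured genes that glucocorticoids are known to induce, 1 passed, and it fell, against 0.0548% lower over all genes. This list was chosen with earlier results of these data known, so the count is no sign of a loss of induced genes. Ptgds, the lipocalin-type prostaglandin D synthase, stood at 4.02, 3.83 and 4.25 in control hearts and at 2.57, 2.07 and 2.28 in knockout hearts. The lowest control lay more than 1 log2 unit above the highest knockout. Its log2 difference was -1.73 (SE 0.18, 3.31-fold lower, limma adjusted p = 0.0111). The call was kept in 8 of 12 fits without 1 array, and the difference was -1.93 within slide 3 (limma adjusted p = 0.296).

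The best known induced genes did not pass. Fkbp5, a chaperone that feeds back on the receptor, was at -0.91, -1.57 and -2.10 in controls and -1.90, -2.53 and -1.98 in knockouts, a log2 difference of -0.61 (95% interval -1.37 to 0.15). Its groups overlapped because control 3 lay below 2 of the 3 knockouts. Tsc22d3, the anti-inflammatory leucine zipper protein GILZ, was at 3.27, 2.91 and 2.76 against 2.83, 2.79 and 2.99, with an interval of -0.48 to 0.26. Per1, a clock gene, was at 0.89, 1.08 and -0.16 against 0.23, -0.15 and 0.36, and here too 1 control heart was as low as the lowest knockout. Klf15, a transcription factor of muscle metabolism, had a log2 difference of -0.32 (interval -0.65 to 0.02), Sgk1, a kinase that regulates ion transport, of -0.18 (-0.54 to 0.19) and Lcn2, an iron-carrier binding protein, of -1.31 (-2.84 to 0.22). Zbtb16 was not analysed here.

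Over the whole induced list, 31 genes were below 0 and 18 above, with a median of -0.07. In 8 of the 49 all knockout hearts lay below all control hearts, and in 2 above. Over all genes tested, 6.88% had knockouts wholly below controls and 5.55% wholly above. Beside Ptgds, the lower ones include the metal-binding metallothioneins Mt2, at 3.52, 2.83 and 2.85 against 2.74, 2.13 and 1.97, and Mt1, at 3.45, 4.0 and 4.0 against 3.42, 3.37 and 3.40. Neither passed (limma adjusted p = 0.364 and 0.433). Cdkn1a, the cell cycle inhibitor p21, had the largest positive value of the list, 1.02 (limma adjusted p = 0.563), with controls at -1.51, -1.30 and -0.61 and knockouts at -0.30, -0.05 and -0.02. The median level of the list, each gene taken relative to its mean over the 12 arrays, was 0.22, 0.06 and 0.04 in controls and 0.02, -0.06 and -0.03 in knockouts. Of 17 measured inflammatory genes that the hormone is known to lower, 0 passed and the median was -0.09, with Ccl2, a monocyte chemokine, at 0.16, 0.16 and 0.31 against 0.06, -0.34 and 0.03.

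Prostaglandin genes other than Ptgds did not pass. Of 26 measured genes of prostaglandin synthesis and receptors 1 fell, and the list's median was -0.03. Hpgds, the other prostaglandin D synthase, had a log2 difference of -0.03 (95% interval -0.45 to 0.39), and Ptgs1, the constitutive cyclooxygenase, of 0.05 (-0.26 to 0.36). Pla2g5, a secreted phospholipase that releases the fatty acid precursor, was at 3.79, 3.88 and 3.94 in controls and 4.13, 4.24 and 4.28 in knockouts (limma adjusted p = 0.532). Ptgs2 lay below the filter on dim probes.

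Of the contractile genes that passed, Myh7 had the largest difference. It encodes the slow beta myosin heavy chain, which the adult mouse ventricle largely replaces by the alpha chain, Myh6. Myh7 was at 5.32, 5.99 and 5.43 in the control hearts and at 7.84, 8.10 and 7.79 in the knockout hearts. Its values left a gap of more than 1.5 log2 units between the groups. It rose 5.02-fold (log2 2.33, SE 0.22, limma adjusted p = 0.00588), and a second probe, which shares nearly all of its target bases with the first, gave 2.61. Myh6 was at 8.76, 9.09 and 8.92 against 8.78, 9.21 and 8.90, so its groups overlapped and the log2 difference was 0.04 (95% interval -0.28 to 0.36); its other probe gave -0.09. Myosin heavy chains share sequence, and how far a probe of one reads another was not tested. Of 13 measured thick filament genes, 1 rose and 0 fell, with a median of 0.04.

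At the Z-disc, where thin filaments are anchored, Myot fell. This gene encodes myotilin, an actin and alpha-actinin binding protein. It was at 3.43, 2.93 and 3.04 in controls and at 1.36, 1.14 and 1.19 in knockouts, a 3.73-fold difference (log2 -1.90, SE 0.15, limma adjusted p = 0.00339). Its call held in 12 of 12 fits without 1 array. Ankrd1, a stress-responsive titin-binding protein of the same list, was at 7.47, 6.91 and 6.79 against 7.93, 8.10 and 7.65 and did not pass (limma adjusted p = 0.233). Of 25 Z-disc genes, 1 fell and 0 rose. In 4 the knockouts lay wholly above the controls and in 2 wholly below, against 5.55% and 6.88% of all genes. The median was 0.00.

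Genes typical of fast skeletal muscle gave 2 of the 17 higher genes. Casq1, the skeletal calsequestrin that buffers calcium in the sarcoplasmic reticulum, was at -0.72 and -0.44 in control hearts 1 and 3 and at 1.25, 2.05 and 1.42 in the knockout hearts. Control 2 had no usable spot, so the fit rests on 2 control values. Casq1 rose 4.45-fold (log2 2.15, SE 0.23, limma adjusted p = 0.0148). Casq2, the cardiac calsequestrin, was at 5.62, 5.58 and 5.67 against 5.79, 6.07 and 5.70, and it did not pass (limma adjusted p = 0.698).

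Mybpc2, the fast form of myosin binding protein C, was at 2.98, 2.56 and 2.82 in controls and 3.78, 4.14 and 3.70 in knockouts. It rose 2.12-fold (log2 1.09, SE 0.14, limma adjusted p = 0.0336), and the call was lost in each of the 12 fits that left out an array. Mybpc3, the cardiac form, had a log2 difference of 0.05 (95% interval -0.34 to 0.44). Of the 23 fast muscle genes measured, 2 rose and 0 fell, against 0.0776% and 0.0548% of all genes, and the median was 0.08. Because the list was chosen with earlier results of these data known, this count is no sign of a fast muscle programme. No other gene of the list passed. The fast light chain Mylpf had means of -1.95 in controls and -1.48 in knockouts (limma unadjusted p = 0.0376, adjusted p = 0.59). Tnnt3 had means of -3.21 and -3.14, Actn3 of -3.60 and -3.59 and Ckm of 5.91 and 5.80 in controls and knockouts. Of the 23 genes of the list that were measured, 17 were above 0 and 6 below. Larger differences that did not pass either were those of the myogenic factors Myod1 (1.35) and Myog (1.01), the myosin light chain kinase Mylk2 (1.16), the calcium release channel Ryr1 (0.69) and the fast troponin C Tnnc2 (0.57, knockouts wholly above controls). The summed level of the list, in multiples of the array's 75th percentile, was 843 to 972 in controls and 768 to 1100 in knockouts. This sum adds probes that are not on one scale and is carried by the brightest, Myh8, Eno3 and Myh4 (control means 8.22, 8.08 and 7.47).

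Genes re-expressed in the stressed or hypertrophic heart moved unevenly. Of 37 measured, 2 passed, Myh7 and Uchl1, and both rose, against 0.0776% of all genes. With earlier results of these data known when the list was chosen, this count is a description only. In 6 genes the knockouts lay wholly above the controls and in 4 wholly below, against 5.55% and 6.88% of all genes. The median was 0.05. Acta1, skeletal alpha-actin, was at 5.51, 4.60 and 4.88 in controls and 6.58, 6.64 and 5.81 in knockouts (log2 1.35, SE 0.34, limma adjusted p = 0.258). Nppb, the B-type natriuretic peptide, was at 4.88, 4.55 and 5.68 against 5.78, 6.55 and 6.08 (log2 1.10, limma adjusted p = 0.384). For both the groups were apart by a small margin only. Within slide 3 the value for Nppb was 0.49. Nppa, the atrial peptide, was at 8.76, 8.85 and 8.59 against 8.78, 9.26 and 8.74, with overlapping groups. Gdf15, a secreted stress cytokine, was at -1.26, -1.19 and -1.21 in controls and 0.93, 0.26 and 0.18 in knockouts and missed the threshold (log2 1.68, SE 0.27, limma adjusted p = 0.0731). Ccn2, a matrix-associated growth factor, was at 4.92, 4.28 and 4.22 against 5.29, 5.44 and 5.06 (limma adjusted p = 0.246).

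Calcium handling genes held 1 that rose, Casq1, and 0 that fell, of 34 measured. In 7 of them the knockouts lay wholly above the controls and in 8 wholly below, 44.1% in all, against 5.55% and 6.88% of all genes. None of the pore-forming subunits of voltage-gated calcium channels named here passed the test. The T-type subunits Cacna1h and Cacna1g were at means of -0.64 and 0.45 in controls and 0.09 and 1.00 in knockouts (limma adjusted p = 0.0745 and 0.135). The main cardiac L-type subunit Cacna1c was at 1.17, 1.28 and 1.12 against 0.84, 0.18 and 0.81 (limma adjusted p = 0.424). Cacna1d, another L-type subunit, was at -3.99, -4.05 and -4.19 in controls and -3.38, -3.44 and -3.78 in knockouts, a log2 difference of 0.54 (limma adjusted p = 0.535). Ryr2, the release channel of the sarcoplasmic reticulum, was at -0.47, -0.49 and -0.64 in controls and -0.98, -1.02 and -1.21 in knockouts. Its log2 difference was -0.54 (SE 0.10, limma adjusted p = 0.0988). Of the 3 Ryr2 probes this was the 1 with groups that did not overlap. The other Ryr2 probes gave -0.19, at a control mean of -0.71, and -0.73, at a control mean of -5.28. Atp2a2, the calcium pump SERCA2, and Pln, its inhibitor, had differences of 0.10 (95% interval -0.23 to 0.43) and -0.15 (-0.43 to 0.13). The probes of Atp2a2 disagreed: 1 of 4 had this direction, and another, A_52_P168097, had means of 5.95 in controls and 5.63 in knockouts, with groups that did not overlap and a difference of -0.32.

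Of the membrane channels, 1 rose and 1 fell. Kcnj14, which encodes the inward rectifier Kir2.4, was at -2.88, -2.66 and -3.02 in controls and at -1.18, -0.92 and -1.28 in knockouts. It rose 3.31-fold (log2 1.73, SE 0.17, limma adjusted p = 0.00821), with a call in 12 of 12 fits without 1 array. Among the 16 inward rectifiers measured it was the 1 that passed. Kcnj2, the main Kir2 subunit of the ventricle, had a log2 difference of -0.36 (95% interval -0.80 to 0.08). Kcnj12, another Kir2 subunit, was at 2.03, 1.77 and 1.78 against 1.42, 1.54 and 1.31 (limma adjusted p = 0.266). Cngb3, the beta subunit of the cone photoreceptor cyclic nucleotide-gated channel, was at -1.11, -1.29 and -1.18 in controls and at -3.13, -3.14 and -2.96 in knockouts. That is 3.69-fold lower (log2 -1.88, SE 0.17, limma adjusted p = 0.00529), and its second probe gave -1.31. The other subunits of the family, Cnga1, Cnga2, Cnga3 and Cngb1, did not pass, with differences of -0.70, 0.75, 0.12 and 0.15.

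Phyhd1 had the smallest p of all genes. It encodes a phytanoyl-CoA dioxygenase domain protein, an iron-dependent enzyme of poorly known substrate. Its levels were 5.58, 5.43 and 5.62 in control hearts and 3.76, 3.91 and 4.07 in knockout hearts, with more than 1 log2 unit between the groups. It fell 3.09-fold (log2 -1.63, SE 0.11, limma adjusted p = 0.00205), and it was called in 13 of 17 other settings and in 12 of 12 fits without 1 array. Its relative Phyh, the peroxisomal phytanoyl-CoA hydroxylase, had a log2 difference of -0.08 (95% interval -0.35 to 0.18). Csdc2, an RNA-binding protein with a cold shock domain, was at 0.83, 0.73 and 0.77 against -0.96, -0.70 and -0.79. It was 3.03-fold lower (log2 -1.60, SE 0.13, limma adjusted p = 0.00339). Whrn, a PDZ scaffold of sensory hair cells and photoreceptors, was at 2.86, 2.96 and 3.20 against 2.05, 2.30 and 2.20 (log2 -0.82, limma adjusted p = 0.0305). Its call was kept in 0 of 12 fits without 1 array.

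In metabolism, 1 glycolytic regulator fell. Pfkfb1, the liver and muscle form of the enzyme that sets fructose 2,6-bisphosphate, was at 1.46, 1.71 and 1.09 in controls and 0.25, -0.19 and 0.04 in knockouts. It was 2.62-fold lower (log2 -1.39, SE 0.19, limma adjusted p = 0.0347), with the call kept in 1 of 12 fits without 1 array. Pfkfb2, the heart form, had a log2 difference of 0.05 (95% interval -0.33 to 0.43). Of 35 genes of glucose uptake and glycolysis measured, 1 fell and 0 rose.

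Most fatty acid oxidation genes had small negative differences, and limma called 0 of 42 (1 higher and 5 lower at an unadjusted p under 0.05). The log2 difference was below 0 in 38 of 42 and the median was -0.15, against 0.02 over all genes, and it ran from -0.20 to -0.06 over the alternative settings. In 12 genes the knockouts lay wholly below the controls and in 1, Ucp2, wholly above, against 6.88% and 5.55% of all genes. Acot1, a cytosolic acyl-CoA thioesterase, was at 3.35, 3.75 and 3.26 in controls and 2.19, 2.09 and 1.84 in knockouts (log2 -1.42, SE 0.29, limma adjusted p = 0.141). Eci1, an enoyl-CoA isomerase, was at 6.46, 6.72 and 6.47 against 6.05, 6.17 and 6.30. Ppargc1a, a coactivator of mitochondrial genes, was at 4.57, 4.15 and 4.13 against 3.92, 3.83 and 3.80 (limma adjusted p = 0.654). The median level of the list relative to its mean over the 12 arrays was 0.17, 0.32 and 0.17 in controls and 0.04, 0.11 and 0.01 in knockouts.

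**Figure D3:**
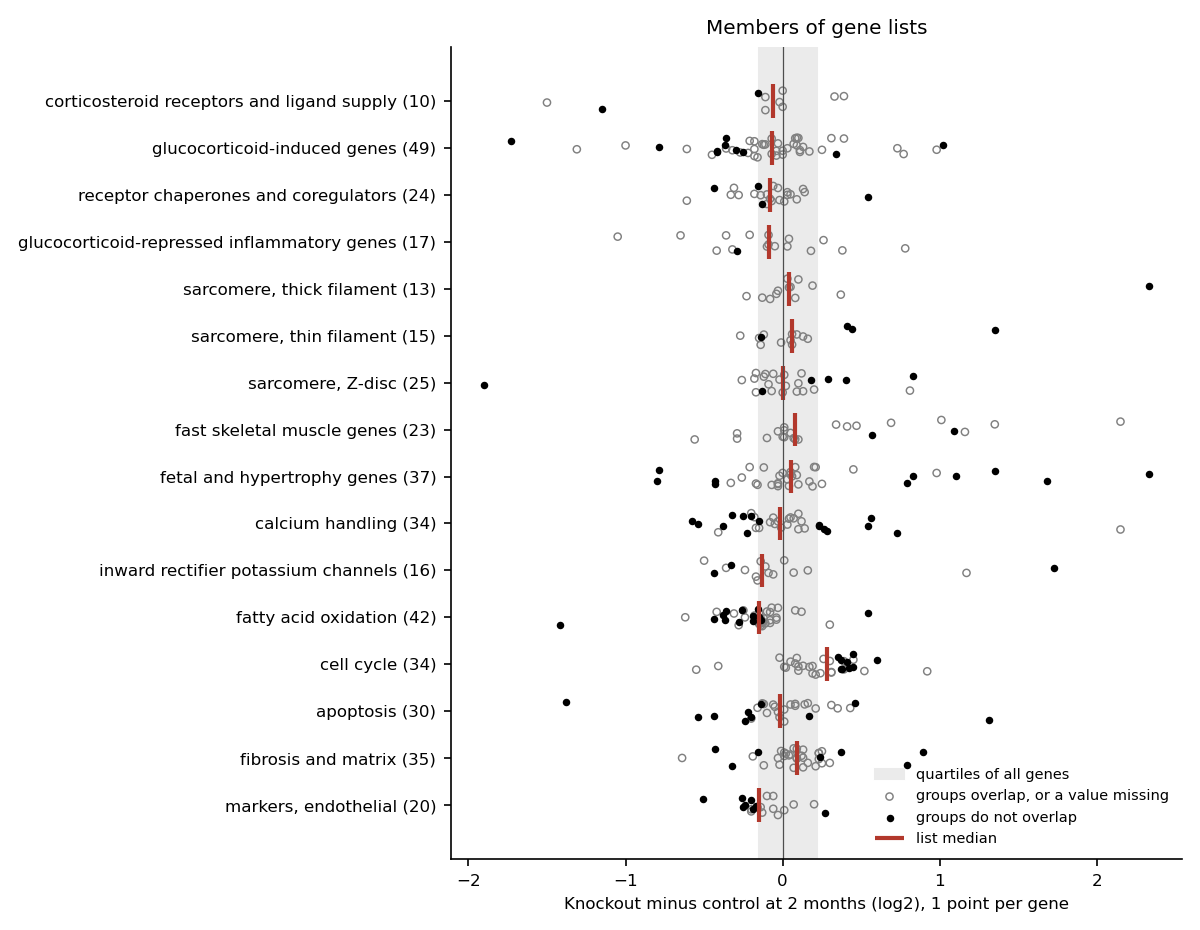
Log2 difference between knockout and control hearts at 2 months for the members of 16 gene lists (1 point per gene, number measured in parentheses), with list medians as red bars and the span between the quartiles of all genes, -0.15 to 0.22, shaded. Filled points are genes whose groups do not overlap; the fatty acid oxidation median lies at -0.15 and the cell cycle median at 0.28.

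Cell cycle genes had positive differences in 31 of 34, and limma called 0 (3 higher and 0 lower at an unadjusted p under 0.05). The median was 0.28, 9 genes had knockouts wholly above controls and 0 wholly below, against 5.55% and 6.88% of all genes. Prc1, which bundles spindle microtubules, was at -1.45, -1.38 and -1.20 in controls and -1.08, -0.89 and -0.24 in knockouts. Ccne1, the G1 cyclin E, was at -0.70, -0.57 and -0.60 against -0.34, -0.27 and -0.04 (limma adjusted p = 0.362). The list score of knockout hearts, -0.35, -0.47 and -0.48, met that of control 2 at -0.47, while controls 1 and 3 were at -0.89 and -0.69. In the 1-month hearts the median of the same list was -0.39.

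Of 30 apoptosis genes 1 rose. Bcl2, which protects mitochondria from permeabilisation, was at 0.78, 0.22 and 0.38 in controls and 2.16, 1.70 and 1.46 in knockouts. It rose 2.48-fold (log2 1.31, SE 0.19, limma adjusted p = 0.0467), the weakest call of the 29. Its other probes gave 0.57 and 0.02, and the call was lost in each fit without 1 array. Bnip3, a mitochondrial death and mitophagy protein, was at 3.77, 4.03 and 3.74 against 3.31, 3.19 and 3.42 (limma adjusted p = 0.117). In the dystrophin complex 0 of 23 passed. Nos1, the neuronal nitric oxide synthase, was at -2.76, -3.46 and -3.45 against -1.68, -1.84 and -1.47 (limma adjusted p = 0.135), and Dmd, dystrophin, at 0.36, 0.32 and 0.14 against -0.38, -0.44 and -0.48 (limma adjusted p = 0.0911).

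Several genes that rose are known from other tissues. Meig1, a spermatid protein needed for the sperm tail, was at -0.38, -0.58 and -0.85 in controls and 1.14, 1.13 and 0.97 in knockouts (3.21-fold, limma adjusted p = 0.0347). Mycbpap, which binds a MYC-binding protein, was at -2.20, -2.05 and -1.73 against -0.87, -0.92 and -1.05 (2.07-fold, limma adjusted p = 0.0336). Both stand in the list of 15 ciliated cell markers, of which these 2 rose and 0 fell, against 0.0776% and 0.0548% of all genes. The list was chosen with earlier results of these data known, so this count is no sign of a cell type. The list's defining factor Foxj1 had means of -4.05 in controls and -5.70 in knockouts. On the knockout arrays the dimmest probes well above background averaged -5.79, so Foxj1 was near the floor there. Foxj1 also stands in the lung and airway list, whose score was highest in control 3. The summed level of the whole ciliated list was 8.96 to 12.1 in controls and 13.2 to 16 in knockouts, Meig1 and Mycbpap included. This sum adds probes that are not on one scale. Pdzd3, a PDZ scaffold of epithelial transporters, was at 0.27, 0.02 and 0.13 against 1.43, 1.77 and 1.5 (2.68-fold, limma adjusted p = 0.0117).

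Uchl1, a neuronal ubiquitin hydrolase, was at 2.13 and 2.43 in control hearts 2 and 3 and at 3.24, 3.27 and 3.27 in knockouts (1.97-fold, limma adjusted p = 0.0279). Control 1 had no usable spot for it. It also stands in the list of 15 nerve and Schwann cell markers, where it is the 1 gene that rose and 0 fell. That list too was chosen with earlier results of these data known. The remaining named genes that rose were the RNA polymerase I subunit Polr1e (1.80-fold), the keratin-related Krt222 (1.63-fold), the zinc finger gene Zfp286 (1.60-fold) and the cell cycle phosphatase Cdc14b (1.57-fold). Their log2 differences were 0.65 to 0.85, with limma adjusted p from 0.0177 to 0.0412, and in each the knockout hearts lay wholly above the control hearts. Hsbp1l1, related to a binding protein of heat shock factor, was at -0.98, -0.83 and -0.64 in controls and -1.58, -1.57 and -1.61 in knockouts (1.71-fold lower, limma adjusted p = 0.0344).

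A total of 4 genes were near the background of the array in one group, so their folds are lower bounds. Prr27, Klk1b16 and C030046M01Rik were well above background on the 3 controls of 2 months and on no other array. AU023762 was so on knockout arrays only. All 4 met the filter on dim probes only through the group where they are high, and their p-values do not allow for this. For the bounds, each array of the dim group was set to its dimmest probe well above background, or to its own signal where that was higher. Prr27, a proline-rich protein, was at -3.26, -3.69 and -3.44 in controls and not well above background in any knockout, where its signal was -7.95, -6.46 and -6.71. It was at least 5.04-fold lower (limma adjusted p = 0.0117). Klk1b16, a tissue kallikrein, was at -4.48, -4.84 and -4.88 in controls and not well above background in knockouts, at least 2.09-fold lower (limma adjusted p = 0.0117). Kallikreins are near-identical copies of each other and their probes may share signal, so the gene is uncertain. Of the 11 kallikreins measured 1 fell and 0 rose; Klk1b26 was at -2.90, -1.90 and -3.60 against -4.58, -4.30 and -4.39 (limma adjusted p = 0.439).

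The 5 features that passed without a standard symbol were named after their values were seen. C030046M01Rik was at least 3.16-fold lower in knockouts (limma adjusted p = 0.0383) and not well above background there. AU023762 was not well above background in controls and was at least 1.58-fold higher in knockouts (limma adjusted p = 0.0344). BC022713 rose by 1.26 on the log2 scale (limma adjusted p = 0.0344), and the probes A_52_P764117 and A_52_P836919 rose by 1.64 and 1.34 (limma adjusted p = 0.00588 for both). A_52_P764117 was at -0.41, -0.48 and -0.39 in controls and 1.27, 1.35 and 1.03 in knockouts. In the array's annotation on build mm7 it lies on chromosome 16 from 4860399 to 4860458, and A_52_P836919 on chromosome 14 between 58223932 and 58224473.

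By position, 3 of the 11 lower genes with a RefSeq entry lie on chromosome 18, which holds 2.3% of the 17180 tested genes with an entry. They are Nr3c1 (39410545 to 39519421), Myot (44334053 to 44355740) and Hsbp1l1 (80228939 to 80250102, all GRCm38.p6). Of the 14 higher genes with an entry, 0 lie there. This count was made after the genes were known and is given with no test.

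**Figure D4:**
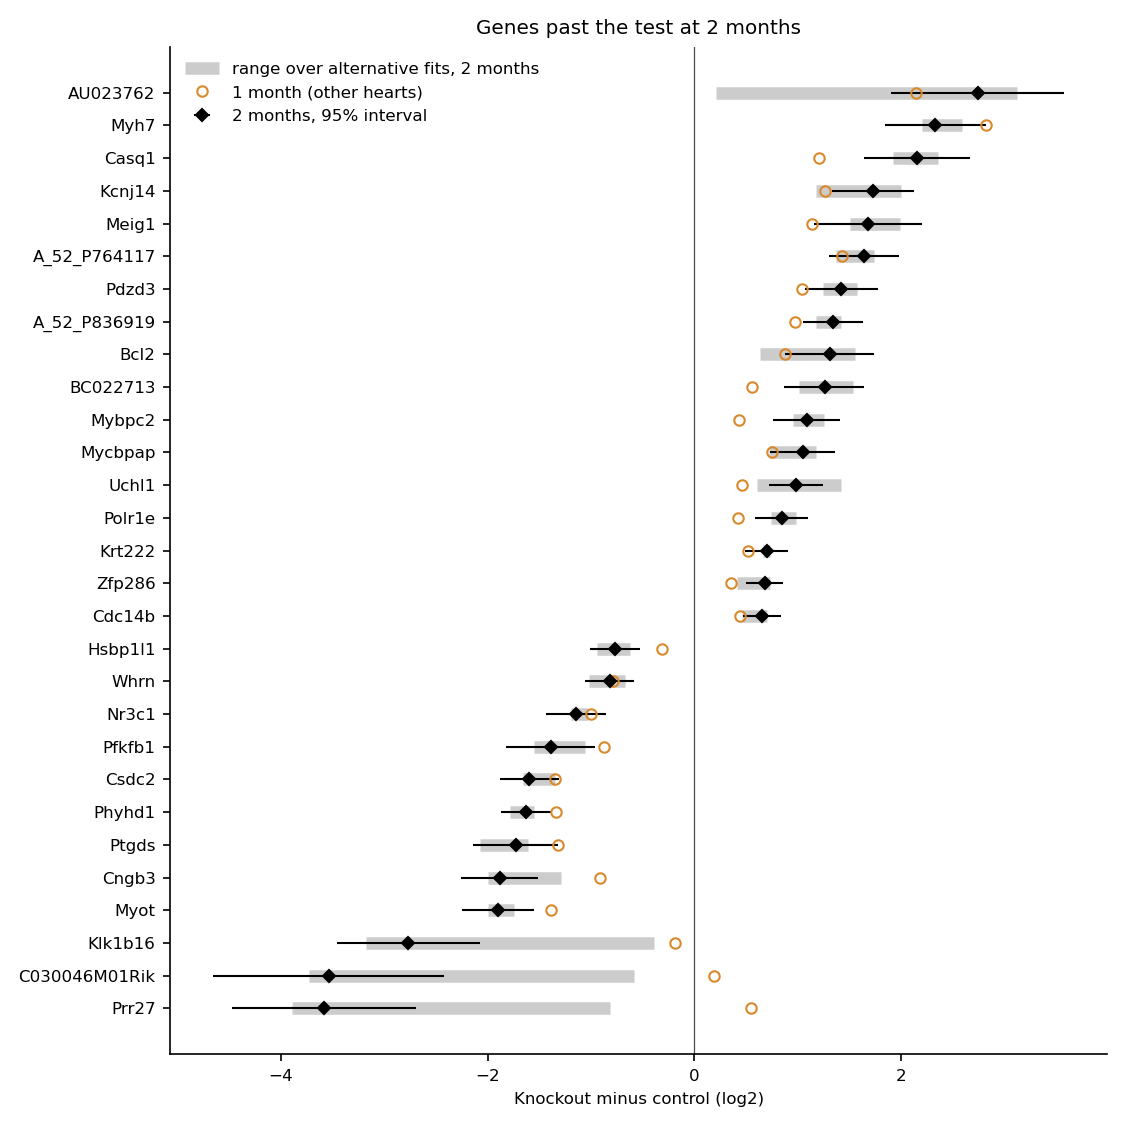
Log2 difference between knockout and control hearts at 2 months for the 29 genes that passed (diamonds, with 95% intervals of limma's fit), its range over the alternative fits (grey bars) and the difference in other hearts at 1 month (open circles). All grey bars stay on 1 side of 0; the bars of Prr27, Klk1b16, C030046M01Rik and AU023762, which are near background in 1 group, are the widest.

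The 1-month hearts are other animals, and no array is shared between the ages. Their arrays did enter the probe filter and the estimate of the spread by which the 29 genes were called. The comparison with 1 month is therefore not independent of that choice. Of the 29 genes, 27 had the same direction there, 17 of 17 higher and 10 of 12 lower, and in 25 the 1-month groups did not overlap, in the same direction as at 2 months. Over all genes, 17.5% had 1-month groups that did not overlap. That share counts either direction, whatever the direction at 2 months, so it is a wider measure than the 25. Slide 1 held all 1-month controls, slide 2 held 1-month knockouts 2 and 3, and slide 4 held 1-month knockout 1. Genotype and slide therefore cannot be told apart at 1 month. The exceptions in direction were Prr27 and C030046M01Rik, at 0.55 and 0.19. Prr27, C030046M01Rik and Klk1b16 (-0.19) were not well above background on any 1-month array, so their direction at that age is that of background signal. Of the 6 genes called at 1 month, 5 are among the 29. A test of the difference between the 2 effects called 0 genes (limma, 0% of genes tested). An unadjusted p under 0.05 was found for 293 genes, 12 of them among the 29, where 1096 would be found if no gene differed. Cngb3, with -1.88 at 2 months and -0.91 at 1 month, had an unadjusted p of 0.0024, and Casq1, with 2.15 and 1.21, of 0.0133. Prr27 (3.5e-05), Klk1b16 (0.000196) and C030046M01Rik (0.000438) had smaller ones. The 29 genes were chosen for their 2-month difference, which favours a larger value at that age. These unadjusted p-values therefore do not show a change with age.

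No list of markers of another cell type held more than 2 genes that passed. Endothelial markers, 20 genes, had a median of -0.15, with 0 past the test, and the list scores were 0.00, -0.03 and -0.05 in controls and -0.18, -0.06 and -0.23 in knockouts. Of these 20 markers 16 were below 0, and the knockouts lay wholly below the controls in 7 and wholly above in 1, against 6.88% and 5.55% of all genes. Fibroblast and atrial markers held 0 genes that passed and 0 with groups apart. Lung and airway markers had a median of -1.27 over 16 genes, and this went with control 3, whose score was 1.10 against -1.21 and -0.23 in the other controls and -1.13, -1.17 and -0.44 in knockouts. Adipocyte scores were 0.08, -2.02 and 0.16 in controls and -0.27, -0.51 and 0.49 in knockouts. T and B lymphocyte scores were highest in knockout 3, at 0.63, and control 3, at 0.32, and lowest in control 1, at -0.60. The part of other tissue in the gene results was not tested. The 29 genes kept their direction without knockout 3 and without each of the controls. This cannot decide the question, since in 27 of them the groups do not overlap and leaving out 1 array cannot turn the direction. Matrix genes held 0 of 35 that passed, with Col1a1, the main fibrillar collagen, at 4.05, 3.28 and 3.76 against 4.09, 4.01 and 3.66.

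**Figure D5:**
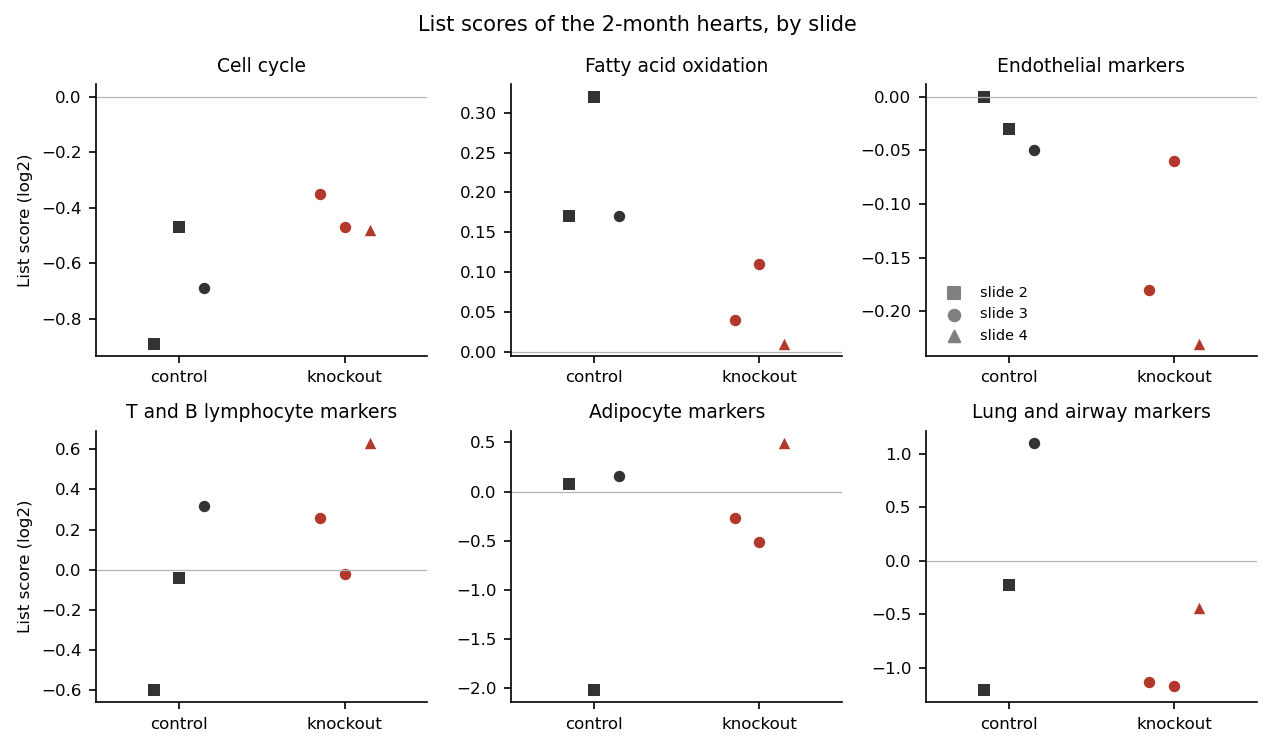
Score of 6 gene lists in the 6 hearts of 2 months (vertical axis, log2; the median of the list's genes, each taken relative to its own mean on the 12 arrays), with the slide of each array as the marker shape. Fatty acid oxidation scores of knockouts, 0.04, 0.11 and 0.01, lie below the controls at 0.17, 0.32 and 0.17, whereas lymphocyte, adipocyte and lung scores vary within groups.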

How the data were processed

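Whole-heart RNA was measured on Agilent 1-colour (Cy3) mouse arrays, 1 per heart. The scanning software was Agilent Feature Extraction 9.5, per the submitters' processing notes. Values deposited by the authors, per the file headers, are the processed signal, a linear intensity; the deposited value table holds the same intensity values.

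Control spots (1639 of 45018 features) and spots marked non-uniform (3 to 310 per array) were left out, and spots of a probe were averaged. Log2 processed signal minus each array's 75th percentile (844.2 to 1460.1 intensity units) entered limma 3.58.1 (R 4.3.3), where each group had 1 mean and all 12 arrays shared 1 estimate of the spread. Probes entered when at least 3 of 12 arrays read them well above background, and a gene was represented by its brightest entering probe. Probes took current names through a RefSeq accession (22951), a current symbol (6659), a synonym (3073) or another accession (54), and 8437 kept the file's name. P-values are two-sided and adjusted by Benjamini-Hochberg over 21910 genes, and a gene passed under 0.05. A gene's groups do not overlap where every knockout value lies on 1 side of every control value; genes with a missing value were not counted.

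The genes, lists and naming rule were chosen with earlier results of these data known. The rule named Nr3c1, Myh7, Casq1, Kcnj14, Ptgds and Cngb3, all genes with a standard symbol that passed (up to 20 per direction), up to 5 members of each list by call and then by non-overlap, family members of genes that passed, and a fixed set of heart and hormone genes. Alternatives covered scaling, background, dim probes, probes per gene, variance moderation, array weights, slide, scan day, the replicate number, the arrays used and leaving out each array. Promoter motifs were searched in RefSeq sequences with Python 3.11.15, and matplotlib 3.10.9 drew the figures. Precision is limited by having 3 arrays per group. Some genes that the rule names are left out of the text.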

Additional observations from a re-analysis of the deposited data

How the results depend on the processing

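The number of genes past the threshold depended on the setting, and their direction did not. The main counts were 17 higher and 12 lower. Median centring gave 1 and 2, no filter on dim probes 6 and 9, and a filter on all 3 arrays of a 2-month group 21 and 19. Limma called 0 and 0 for the 6 arrays of 2 months alone (1201 at an unadjusted p under 0.05), with slide as a fixed block (994) and within slide 3 (901). Trend and robust moderation gave 46 and 35, and array weights 823 and 573. The second scan day left out gave 1 and 7, and the 3 arrays with the most probes above background left out gave 1 and 3. With slide as a random block the counts were 15 and 11. Leaving out 1 array gave 5 to 13 higher and 5 to 10 lower, 10 genes in all without knockout 2 or 3 of 2 months and 22 without control 1 of 1 month; the other arrays lay between. Genes whose effect differed between ages numbered 0 in the main fit and in each fit without 1 array, 5 with slide as a fixed block and 2 without the 3 arrays. The 29 genes kept their direction under all 29 alternatives that could fit them (Krt222 and Casq1 were not measured after background correction and quantile scaling), and each had an unadjusted p under 0.05 throughout except Cdc14b under median centring (0.0576). For the 27 genes whose groups do not overlap, the fits without 1 array could not have turned the direction. All alternatives reuse the arrays on which the 29 genes were chosen, so they are no independent check. The deviations of same-numbered samples correlated at 0.493, -0.054 and 0.144 for numbers 1, 2 and 3, not all of one sign, and the numbers were not taken to pair the hearts; a replicate block gave 2 higher and 4 lower. Signal over background limits Prr27, Klk1b16, C030046M01Rik and AU023762 to bounds.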
